A study of Mus musculus with 69 samples.

Results

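The MYC-MAX network genes are 10 genes, Myc, Mycn, Max, Mxd1, Mxd3, Mxd4, Mxi1, Mnt, Mlx and Mga, taken by symbol from a list set by the known membership of the network, not by their values. They are 10 of the 24309 gene symbols that the 3 count tables of the series shared. Proteins of this network carry a basic helix-loop-helix leucine zipper and bind DNA in pairs. MYC and MYCN pair with MAX, bind the E-box CACGTG and raise transcription of genes for ribosome production, nucleotide and polyamine synthesis and amino acid uptake. MXD1, MXD3, MXD4, MXI1 and MNT compete with MYC for MAX and recruit SIN3 and histone deacetylases to the same sites, MGA joins MAX to a repressive complex, and MLX pairs with MNT, MXD1 and MXD4 and with the glucose-sensing MLXIP. In T cells, MYC is known as the driver of growth and of the metabolic switch that follow antigen or cytokine.

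Poly(A) RNA was sequenced from mouse T cells that differ in the number and kind of alleles of the paralogs Stat5a and Stat5b, which encode the transcription factors below the receptors for IL-2, IL-7 and IL-15. The question was how far each paralog serves each cell state and cytokine. Wild type (WT) mice were Stat5a+/+ Stat5b+/+, AAB mice were Stat5a-/- Stat5b+/- and thus kept 1 allele of Stat5b, and BBA mice were Stat5a+/- Stat5b-/- and kept 1 allele of Stat5a. The deletions were in the germline, so every cell of these animals carried them, and each cell had developed with fewer alleles. From pooled lymph nodes and spleens, CD8+ T cells were sorted as naive (Tnv), central memory (Tcm) and effector memory (Tem), and naive CD4+ T cells were sorted separately. Cells were taken without cytokine, or cultured with IL-7 (not Tem) or IL-15 (not CD4+) for 12 to 16 h. Each of the 24 CD8+ groups held 2 libraries and each of the 6 CD4+ groups held 2 or 3. In a further experiment, cells labelled as CD8+ from AAB mice were activated in vitro, grown with IL-2 and sorted for the GFP of a retrovirus that carried a constitutively active STAT5A (CA-STAT5A) or nothing, with 2 libraries each. The sources differ on the cells without cytokine: the study's methods describe them as processed directly, whereas the sample labels give them 12 to 16 h as well. The effect of a cytokine and that of time in culture therefore cannot be told apart. In such bulk RNA, fewer cells of a type and less RNA per cell cannot be told apart either.

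Counts on genes were 5926139 to 25612758 per CD8+ library, 6705004 to 34118295 per CD4+ library and 11020965 to 16516525 per retrovirus library. Levels below are counts scaled to a common library total (CPM, with TMM normalization). Stat5a was at 0.967 to 4.89 CPM in the AAB CD8+ libraries, 34.9 to 49.3 in the BBA and 32.6 to 106 in the WT. The low Stat5a of AAB was as the labels say. Stat5b was at 48.8 to 93.3 CPM in the BBA, 78.4 to 140 in the AAB and 165 to 351 in the WT CD8+ libraries. BBA libraries thus held Stat5b reads although their genotype is Stat5b-/-, and their range overlapped that of AAB. The source of these reads was not tested. The retrovirus libraries did not bear out the CD8+ label: Cd8a was at 1.40 to 3.16 CPM and Cd3e at 2.79 to 14.8, beside 1124 to 1453 CPM of the natural killer receptor Ncr1. By Xist and Y-linked transcripts, 10 of the 48 CD8+ libraries came from males, all of them with IL-7, and the 2 AAB and BBA groups of Tcm with IL-7 held both sexes, so that the IL-7 responses of CD8+ cells below cannot be told apart from a difference of sex.

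The GENCODE annotation of GRCm38 gives Myc at chr15:61985391-61990374 on the plus strand and Max at chr12:76937269-76962201 on the minus strand. Mycn lies at chr12:12936093-12941914 (minus), Mxd1 at chr6:86647042-86669161 (minus), Mxd3 at chr13:55325168-55329823 (minus), Mxd4 at chr5:34173883-34187720 (minus) and Mxi1 at chr19:53310518-53375810 (plus). Mnt lies at chr11:74830920-74845725 (plus), Mlx at chr11:101087277-101092207 (plus) and Mga at chr2:119897228-119969581 (plus). Exons of 4 members overlap a gene on the opposite strand, over 105 bases of Mxd3 (Prelid1), 514 of Mxd4 (Gm42846), 194 of Mxi1 (Gm10197) and 385 of Mlx (Psmc3ip), and whether the counting used strand is not given in the sources used here.

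The E-box that MYC-MAX and MXD-MAX pairs share is itself present before several of these genes, and those sites are shown because the levels of their owners are set against Myc below. RefSeq promoters (GRCm38.p6, 250 bases before to 50 after the transcription start) were found for 9 of the 10 members, all but Myc, and 4 of these 9 members held CACGTG. Among all 32851 promoters of that length 7.15% held it. Each site is printed 5′ to 3′ with 10 bases on either side, with the E-box, which reads the same on both strands, in capitals.
Max: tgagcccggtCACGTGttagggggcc
Mlx: tgggttggatCACGTGactgagcctc
Mnt: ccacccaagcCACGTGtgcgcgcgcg
Mxd4: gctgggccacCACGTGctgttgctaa
They lie at chr12:76962236-76962261 (minus strand) for Max, chr11:101087240-101087265 (plus) for Mlx, chr11:74830791-74830816 (plus) for Mnt and chr5:34187914-34187939 (minus) for Mxd4. The first base of the E-box was at position -3 from the start of Max, -40 from that of Mlx, -123 from that of Mnt and -219 from that of Mxd4. The STAT motif TTCNNNGAA, searched on both strands, was in none of the promoters of these 9 members and in 8.3% of all promoters. The promoter of Myc was not searched. These are matches of letters and no measure of binding.

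Per kilobase of merged exons, the median level over the 48 CD8+ libraries was highest for Myc, at 61.3 CPM per kb, followed by Max (35.1), Mlx (23.8), Mnt (18.9) and Mga (12.3). The MXD genes were lower, with Mxd3 at 7.70, Mxd4 at 7.65, Mxi1 at 4.29 and Mxd1 at 4.24 CPM per kb. Mycn was near its limit of detection, at 0.0442 CPM per kb. In the 24 CD8+ groups, group means of Myc ran from 32.6 CPM in BBA Tem with IL-15 to 411 CPM in WT Tcm with IL-15, a 12.6-fold range. Of the 23 neighbouring pairs in that order, only 3 were pairs of groups whose libraries did not overlap, so most neighbours in the order did not differ beyond their spread. The range of group means was 1.60-fold for Mnt, 1.76-fold for Max and for Mlx, 1.89-fold for Mga and 2.12-fold to 3.35-fold for the MXD genes and Mxi1, with Mxd4 the widest.

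**Figure D1:**
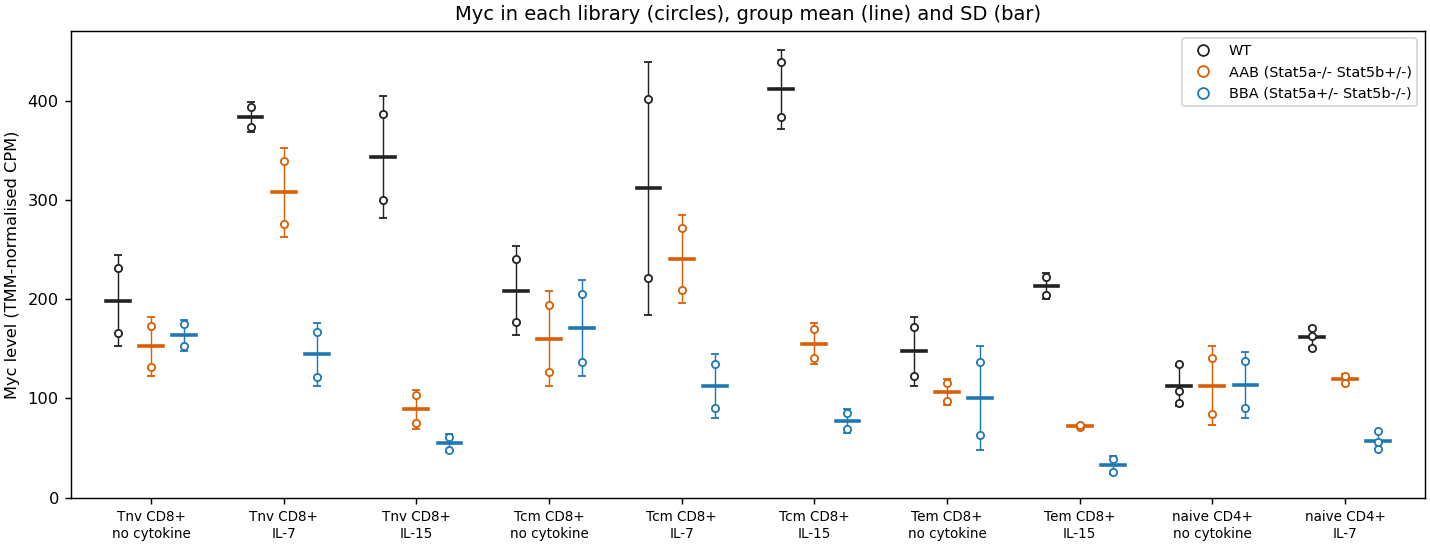
Myc level in CPM (vertical axis, linear) in every library, by cell state and culture (horizontal axis) and by genotype (colour). Circles are libraries, lines group means and bars SD. With IL-7 or IL-15 the BBA libraries lie below all WT libraries of the same condition, whereas without cytokine WT and BBA overlap. In Tem without cytokine the AAB libraries lie below the WT libraries.

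Among the 9 members that passed the filter, Myc differed most between genotypes, and it did so with cytokine. In Tcm with IL-15 it was at 383 and 439 CPM in WT, at 140 and 170 in AAB and at 69.1 and 85.6 in BBA. The 3 genotypes did not overlap, and AAB was at 37.7% and BBA at 18.8% of the WT mean. The log2 difference was 2.37 (SE 0.15) between WT and BBA, 1.39 (0.14) between WT and AAB and 0.98 (0.14) between AAB and BBA, with adjusted p of 0.000122, 0.00437 and 0.0137 in edgeR's quasi-likelihood test. A gene was called where it differed by more than 1.5-fold with an adjusted p under 0.05 over all genes tested, and by that rule 23.5%, 4.45% and 5.84% of all genes tested were called in these comparisons. Here B cell transcripts also moved with genotype: their summed level over 5 markers was 92.2 and 173 CPM in WT, 68.9 and 191 in AAB and 192 and 402 in BBA. The summed level of 6 myeloid markers was 23.1 and 15.7 CPM in WT, 17.3 and 51.0 in AAB and 48.4 and 29.9 in BBA, with Csf1r at 0.429 to 0.863 CPM in WT, 0.895 to 1.87 in AAB and 6.996 to 10.4 in BBA and Cd14 at 0 in both WT libraries. Of the same markers, S100a8 went the other way, at 4.10 to 6.85 CPM in WT and 0.197 to 3.11 in BBA. So did S100a9, at 5.21 to 7.65 CPM in WT and 0 to 2.88 in BBA. The part of these transcripts in the result was not tested.

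In Tnv with IL-15, Myc was at 387 and 300 CPM in WT, 75.1 and 103 in AAB and 48.5 and 61.6 in BBA. Again no 2 genotypes overlapped, and AAB was at 25.9% and BBA at 16.0% of WT. The log2 difference was 2.60 (SE 0.22, adjusted p = 0.00177, edgeR) for WT over BBA, where 9.6% of genes were called, and 1.94 (SE 0.21, adjusted p = 0.0266, edgeR) for WT over AAB, where 0.908% were. The value of AAB over BBA was 0.66 (adjusted p = 0.563, edgeR) and was not called, in a comparison where 0.0699% of genes were. Replicate 2 of this WT group held CD4+ transcripts, with Cd4 at 236 CPM against 6.5 in replicate 1, and without it Myc differed by 2.78 between WT and BBA and by 2.11 (adjusted p = 0.0246, edgeR) between WT and AAB. The call of WT over AAB was lost without AAB replicate 1 (1.72, adjusted p = 0.229, edgeR) and without AAB replicate 2 (2.19, adjusted p = 0.174). Summed B cell markers were at 43.9 and 128 CPM in WT, 65.3 and 142 in AAB and 98.5 and 205 in BBA here. Summed myeloid markers were at 9.08 and 22.7 CPM in WT, 16.1 and 70.6 in AAB and 114 and 37.8 in BBA, with Csf1r at 0.833 to 0.853, 1.66 to 4.06 and 9.92 to 11.4 CPM and Lyz2 at 2.75 to 6.70 CPM in WT and 19.7 to 52.2 in BBA. Between WT and BBA, S100a8 overlapped (0.750 to 4.94 and 0.717 to 19.9 CPM), as did S100a9 (2.42 to 7.92 and 0.717 to 20.3 CPM). The part of these transcripts in the Tnv values was not tested.

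In Tem with IL-15, Myc was at 222 and 204 CPM in WT, 71.8 and 73.0 in AAB and 26.2 and 39.1 in BBA. The genotypes did not overlap, and the log2 difference was 2.67 (SE 0.19, adjusted p = 0.0163, edgeR) for WT over BBA, with 1.81% of genes called. For WT over AAB it was 1.52 (SE 0.18, adjusted p = 0.196, edgeR), which was not called, as were only 0.0199% of genes. The WT over BBA call was lost in 5 of the 6 fits that left out 1 library. Summed myeloid markers in Tem were at 17.1 and 46.7 CPM in WT, 28.7 and 104 in AAB and 121 and 17.2 in BBA, and their part was not tested.

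With IL-7, Myc in AAB was at 80.2% of WT in Tnv and 74.0% in CD4+ cells, and in BBA at 37.6% and 35.6%. In Tnv with IL-7, Myc was at 394 and 373 CPM in WT, 339 and 276 in AAB and 167 and 122 in BBA, a log2 difference of 1.43 (SE 0.19, adjusted p = 0.0189, edgeR) for WT over BBA with 2.69% of genes called. In CD4+ cells with IL-7 it was at 171, 163 and 151 CPM in WT, 116 and 123 in AAB and 49.0, 67.2 and 56.1 in BBA. BBA lay below both other genotypes without overlap, and the log2 difference was 1.49 (SE 0.11, adjusted p = 7.87e-05, edgeR) for WT over BBA and 1.06 (SE 0.12, adjusted p = 0.00263, edgeR) for AAB over BBA, with 5.51% and 1.57% of genes called. WT over AAB was 0.32 in Tnv and 0.43 in CD4+ cells, neither called, where 0.256% and 0.637% of genes were. The Tnv call was lost in 4 of 6 fits without 1 library.

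In Tcm with IL-7 the libraries of 1 genotype spread widely, and the comparison did not settle. Myc was at 222 and 402 CPM in WT, 272 and 209 in AAB and 135 and 89.97 in BBA. WT and AAB overlapped and BBA lay below both, but WT over BBA (1.40, SE 0.34, adjusted p = 0.0704, edgeR) was not called, where 3.08% of genes were. The WT libraries of this condition held 654 and 355 CPM of summed myeloid markers against 66.1 and 92.4 in AAB and 221 and 238 in BBA, and the part of this in the result was not tested.

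Over the 6 conditions with cytokine, BBA libraries were all below WT libraries in 6 of 6 and all below AAB libraries in 6 of 6, and AAB libraries were all below WT libraries in all but Tcm with IL-7. All WT libraries were above all BBA libraries for 25.3%, 28.8%, 33.1%, 38.7%, 29.4% and 17.4% of genes in Tnv with IL-7, Tnv with IL-15, Tcm with IL-7, Tcm with IL-15, Tem with IL-15 and CD4+ with IL-7, so the order within 1 condition is not rare by itself. All AAB libraries were above all BBA libraries for 15%, 15.9%, 25.5%, 32.2%, 19.4% and 15.2% of genes in the same order of conditions, and all WT above all AAB libraries for 18.8%, 24%, 27.4%, 31.8%, 20.7% and 15.7%. The WT libraries are the same in both comparisons of a condition. Without cytokine, Myc was at 63.1 to 240 CPM in CD8+ and at 84.6 to 141 CPM in CD4+ libraries. Its log2 differences between genotypes were then -0.10 to 0.53, and 0 of 12 were called by edgeR or DESeq2, with 0 at an unadjusted p under 0.05. Of all genes tested, 2.75%, 0.283%, 0.208% and 1.13% were called for WT over BBA in Tnv, Tcm, Tem and CD4+ cells without cytokine, 0.164%, 0.039%, 0.0198% and 0.355% for WT over AAB, and 0.523%, 0.039%, 0.0198% and 0.0788% for AAB over BBA. Over all members, 0 of 108 such tests gave a call by either tool, with 4 at an unadjusted p under 0.05. With no filter, edgeR called Myc higher in WT than in BBA Tem without cytokine (0.66, adjusted p = 0.0356).

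Mycn, the relative of Myc that T cells scarcely use, ran the other way at a low level. With IL-15 it was at 0.333 and 0.427 CPM in WT, 1.05 and 1.38 in AAB and 2.88 and 5.86 in BBA Tnv. In Tcm with IL-15 it was at 0.230 and 0.184 CPM in WT, 0.0640 and 0.181 in AAB and 1.78 and 2.099 in BBA, and in Tem at 0.676 and 1.32, 1.53 and 3.23, and 2.42 and 8.27. The BBA libraries were above the WT libraries in all 3 states without overlap, whereas Tem of AAB and BBA overlapped. The shares of all genes with BBA above WT in Tcm and Tem stand with Mxd4 below. That in Tnv is not given, and nothing is read from the lack of overlap there. From summed counts, the level in BBA was 11.6 times that in WT in Tnv (95% exact interval 6.08 to 24.2, from 70 and 11 counts), 9.42 times in Tcm (4.22 to 24.8, from 45 and 7) and 4.81 times in Tem (3.11 to 7.70, from 107 and 26), intervals that cover counting error only. Mycn was at 0 in 16 of 48 CD8+ and 13 of 15 CD4+ libraries and passed the main filter in no comparison, so the counts of called members from the main filter do not include it. With filterByExpr, WT over BBA of Mycn was -3.33 (adjusted p = 0.0051, edgeR) in Tnv and -3.00 (adjusted p = 0.0064) in Tcm, both called, and -2.33 (adjusted p = 0.523) in Tem, and AAB over BBA was called in Tcm (-3.77, adjusted p = 0.0162). In fits with no filter, WT over BBA was -3.24 (adjusted p = 7e-05) in Tnv and -2.97 (adjusted p = 0.00184) in Tcm in edgeR's test and was not called in Tem (-2.36, adjusted p = 0.583). In 1 edgeR fit over all CD8+ libraries none of the 3 was called, with adjusted p of 0.0519 in Tnv, 0.0612 in Tcm and 0.173 in Tem.

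**Figure D2:**
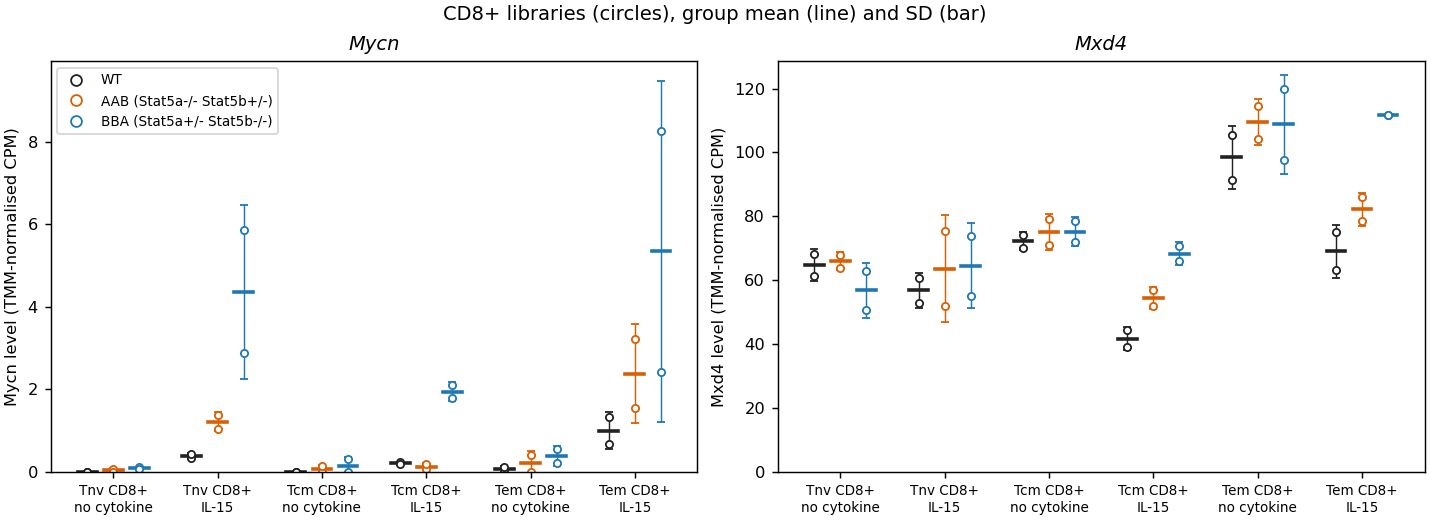
Mycn and Mxd4 levels in CPM (vertical axes, linear, from 0) in the CD8+ libraries by cell state, culture and genotype. Circles are libraries, lines group means and bars SD. Mycn is highest in BBA libraries with IL-15, at 1.78 to 8.27 CPM, and Mxd4 is highest in Tem.

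Max, the partner that MYC and its antagonists share, followed Myc at a distance. With IL-15 it was at 129 and 131 CPM in WT, 88.7 and 96.1 in AAB and 81.9 and 92.3 in BBA Tnv, and at 133 and 136, 103 and 107, and 90.1 and 104 in Tcm. WT lay above both deficient genotypes without overlap in each. The log2 difference of WT over BBA was 0.54 (SE 0.12, adjusted p = 0.0303, edgeR) in Tnv and 0.44 (SE 0.09, adjusted p = 0.00986, edgeR) in Tcm, both under 1.5-fold and thus not called. With filterByExpr in place of the main filter, which moved the log2 values of these 2 comparisons by a median of 0.207 and 0.212, Max was called in both, at 0.74 and 0.65.

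Mxd4, an antagonist linked to resting and differentiated cells, ran against Myc in memory cells with IL-15. In Tcm it was at 39.1 and 44.3 CPM in WT, 51.9 and 56.9 in AAB and 65.9 and 70.8 in BBA, where the genotypes did not overlap and BBA was at 164% of WT. In Tem with IL-15 it was at 75.0 and 63.3 CPM in WT, 78.6 and 85.9 in AAB and 112 and 112 in BBA, again without overlap. All WT libraries were below all BBA libraries for 32.6% and 21.5% of genes in these 2 conditions. The log2 value of WT over BBA was -0.75 (SE 0.10, adjusted p = 0.00189, edgeR) in Tcm and -0.74 (SE 0.11, adjusted p = 0.0421, edgeR) in Tem. Both calls depend on the filter, since filterByExpr gave -0.54 (adjusted p = 0.0053) in Tcm, under 1.5-fold, and -0.62 (adjusted p = 0.339) in Tem, and the Tem call was also lost in each of the 6 fits that left out 1 library. In Tnv with IL-15, Mxd4 was at 52.9 to 60.8 CPM in WT and 55.2 to 73.9 in BBA, which overlapped.

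None of the other antagonists and partners was called between genotypes with the main filter. Mxd3, which marks proliferating cells, was at 21.9 and 39.1 CPM in WT, 18.9 and 21.0 in AAB and 13.1 and 15.6 in BBA Tcm with IL-7, where WT and BBA did not overlap. Its WT over BBA value there was 1.001 (SE 0.29, adjusted p = 0.101, edgeR), and it was called with no filter (1.09, adjusted p = 0.00222) and by DESeq2 (1.01, adjusted p = 0.0354). In Tcm with IL-15, Mxd1 was lower in WT than in BBA by a log2 value of -0.54 (adjusted p = 0.0157) and Mga by -0.30 (adjusted p = 0.0232), and Mxd3 was higher by 0.41 (adjusted p = 0.0353), in edgeR's test, all under 1.5-fold. With filterByExpr Mxd3 was called there (0.62, adjusted p = 0.008), as was Mnt in Tnv with IL-15 (0.59, adjusted p = 0.037), and with no filter Mxd1 (0.61, adjusted p = 0.0469) and Mlx (0.59, adjusted p = 0.044) were called in Tnv with IL-15, each higher in WT than in BBA. Mxd1 in Tcm with IL-15 was at 16.6 and 19.1 CPM in WT and at 23.99 and 26.5 in BBA, without overlap. In CD4+ cells with IL-7 Mxd1 went the other way, at 51.2 to 72.8 CPM in WT and 38.5 to 49.1 in BBA (0.52, adjusted p = 0.0468, edgeR). Mxd1 in these 2 settings thus had opposite signs, and the difference between them was not tested. In all, 7 of 90 tests of a member (9 members tested in each of 10 conditions) gave a call between WT and BBA, 5 of them of Myc and 2 of Mxd4. Between WT and AAB 2 of 90 gave a call and between AAB and BBA 2 of 90, all of Myc. In the conditions with cytokine not yet given, 0.0589% of genes were called for WT over AAB in Tcm with IL-7, and for AAB over BBA 0.148% in Tnv with IL-7, 0.0884% in Tcm with IL-7 and 0.00997% in Tem with IL-15.

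**Figure D3:**
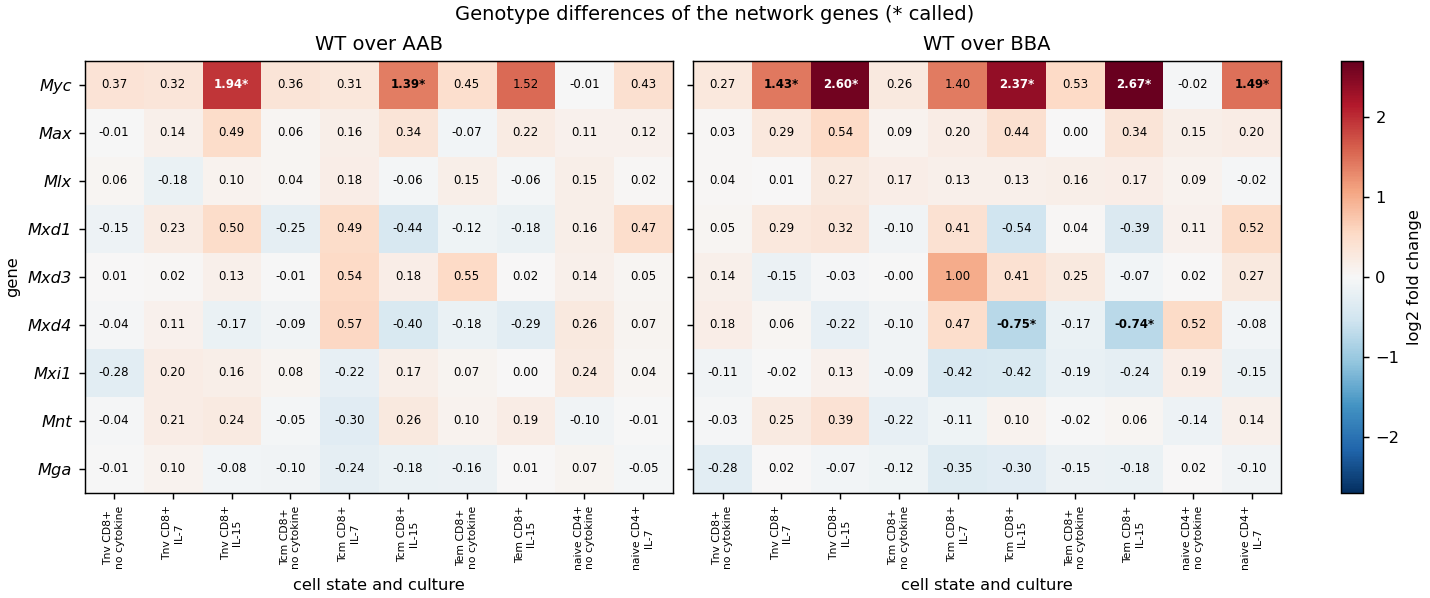
Log2 fold change of each member (rows) between genotypes (panels) in each cell state and culture (columns), with calls marked by an asterisk. Myc carries the strong colours in the columns with cytokine, at 1.40 to 2.67 for WT over BBA, and Mxd4 the opposite colour in Tcm and Tem with IL-15.

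Myc was then set against the sum of its antagonists (Mxd1, Mxd3, Mxd4, Mxi1 and Mnt) in each library, per kb of exon, as a description with no test. In Tcm with IL-15 the log2 ratio of Myc to the antagonists had a mean of 1.83 in WT, 0.53 in AAB and -0.60 in BBA, so that Myc RNA was the more abundant per kb in WT and the less abundant in BBA. For Tnv with IL-15, means of 1.35, -0.42 and -1.06 were found, and for Tem with IL-15 0.82, -0.69 and -2.09. In Tnv with IL-7 the same means read 1.60, 1.44 and 0.29, Tcm with IL-7 gave 1.26, 1.08 and 0.13, and CD4+ cells with IL-7 gave 0.26, -0.08 and -1.09. Without cytokine the genotypes stood closer: Tnv gave 0.82, 0.39 and 0.61, Tcm gave 0.90, 0.47 and 0.50, Tem gave 0.22, -0.12 and -0.40 and CD4+ cells gave 0.13, 0.17 and 0.18. Most of the range came from Myc, which ran from 9.64 to 162 CPM per kb over the CD8+ libraries while the antagonists' sum ran from 34.8 to 54.8. The difference of WT and BBA in Tcm with IL-15 was 2.44, and it was 2.49 with Mga among the antagonists.

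**Figure D4:**
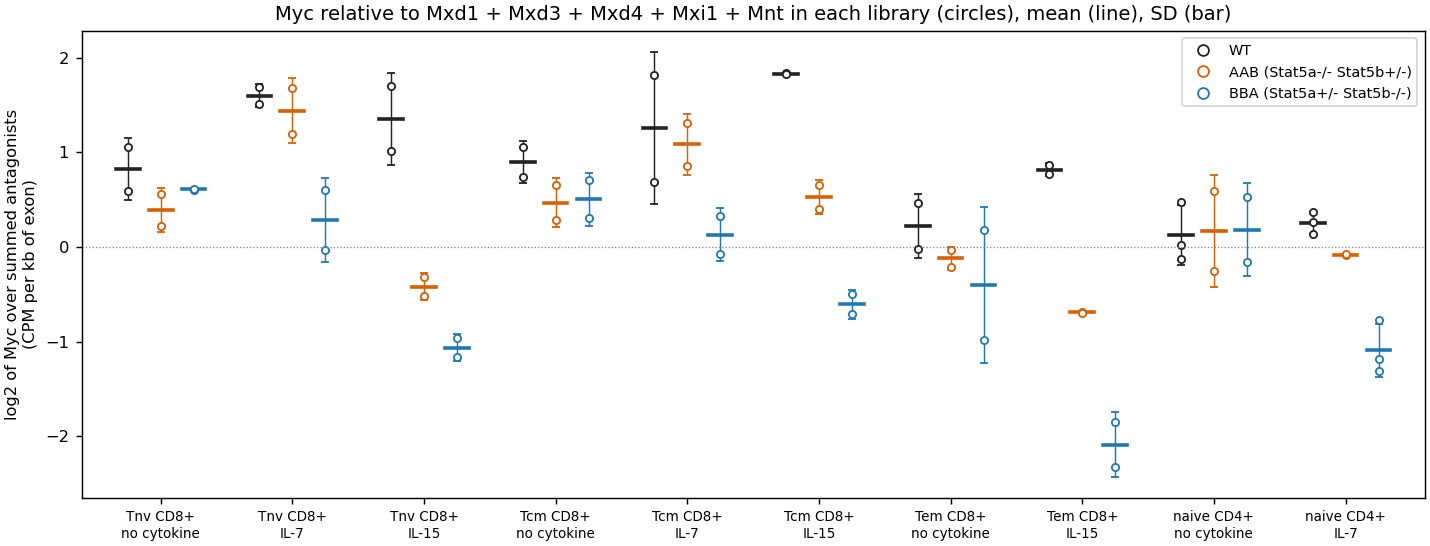
Log2 of Myc over the summed level of Mxd1, Mxd3, Mxd4, Mxi1 and Mnt (vertical axis, both in CPM per kb of exon) in every library by cell state, culture and genotype. Circles are libraries, lines means and bars SD, and the dotted line marks equal levels. With IL-15 the WT means lie at 0.82 to 1.83 and the BBA means at -2.09 to -0.60.

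The response to a cytokine was compared within each genotype with the cells taken without it. In WT Tnv, Myc rose from 166 and 231 CPM to 394 and 373 with IL-7 (log2 0.93, SE 0.18, adjusted p = 0.00949, edgeR) and to 387 and 300 with IL-15 (0.81, SE 0.18, adjusted p = 0.0382), 2 comparisons that share the libraries without cytokine. Of all genes tested 20.3% and 6.15% were called in them. In BBA Tnv, IL-15 went with a fall of Myc from 153 and 175 CPM to 48.5 and 61.6, a log2 value of -1.52 (SE 0.20, adjusted p = 0.00167, edgeR) with 16.8% of genes called. In BBA Tcm it fell from 137 and 205 CPM to 69.1 and 85.6 (-1.09, SE 0.24, adjusted p = 0.0331, edgeR), with 6.9% of genes called, and in BBA CD4+ cells with IL-7 from 90.4 and 137 to 49.0, 67.2 and 56.1 (-0.99, SE 0.19, adjusted p = 0.0121, edgeR), with 12.4% called. None of these pairs of groups overlapped. The share of all genes without overlap is not given for responses, cell states or the retrovirus. Nothing is read from a lack of overlap there.

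IL-7 and IL-15 gave estimates of opposite sign for Myc in AAB Tnv, and the difference between them was not tested. The IL-7 libraries of these cells came from males and the others from females. With IL-7, Myc in AAB Tnv rose from 132 and 173 CPM to 339 and 276 (log2 0.997, SE 0.21, adjusted p = 0.0308, edgeR), where 9.17% of genes were called. With IL-15 it was at 75.1 and 103 CPM in the same cells, a log2 value of -0.74 (adjusted p = 0.0675, edgeR) that was not called, where 10.5% of genes were. In WT Tcm with IL-15 the estimate was 0.98 (SE 0.32, adjusted p = 0.315), but 0% of the 10768 genes tested were called there by edgeR, with 1311 at an unadjusted p under 0.05. That fit also held the 2 unlike WT Tcm libraries with IL-7, and with no filter Myc was called at 0.95 (adjusted p = 0.00258, edgeR).

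**Figure D5:**
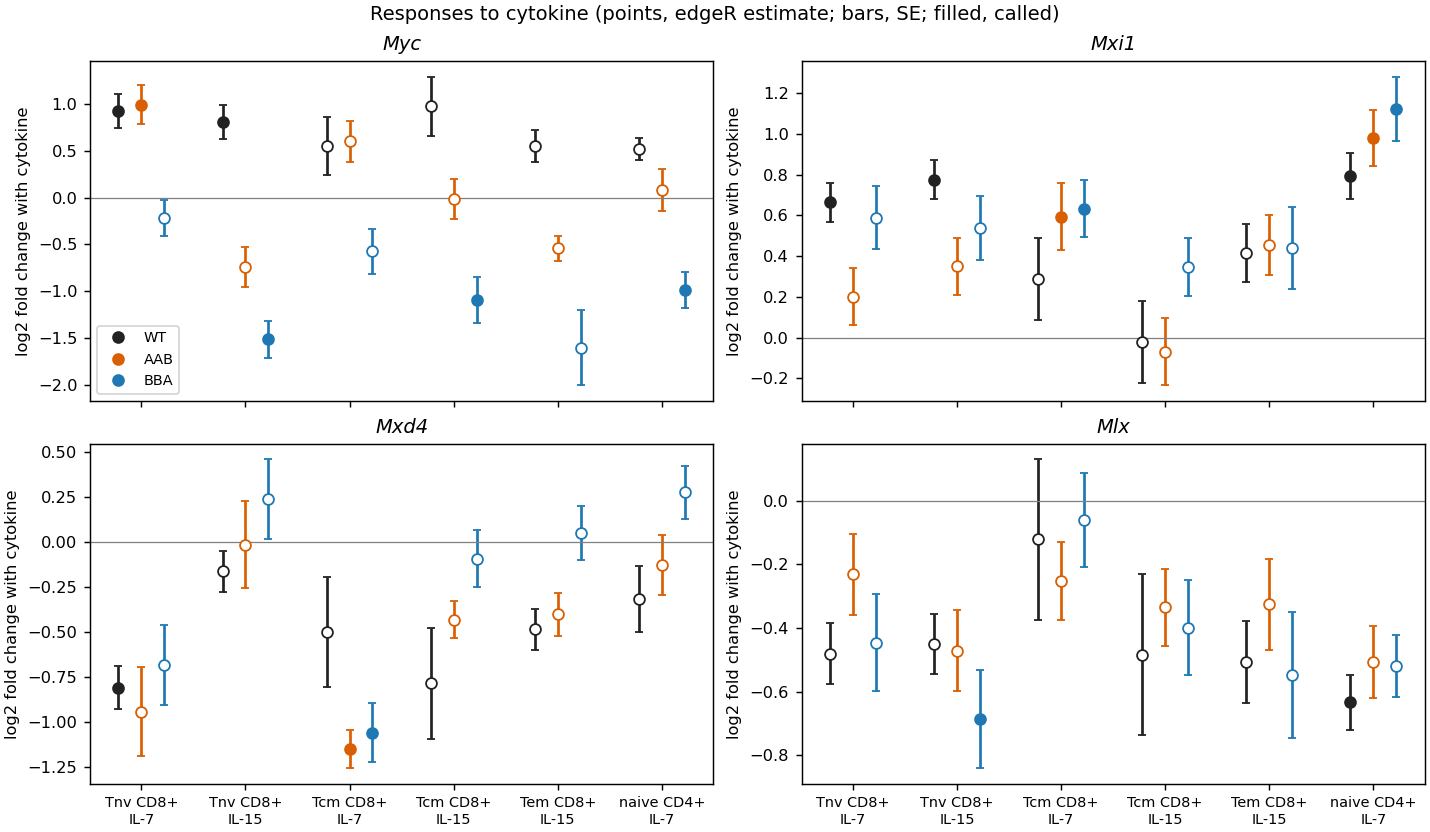
Log2 change with cytokine against cells without it (vertical axes) for Myc, Mxi1, Mxd4 and Mlx, by cell state and cytokine (horizontal axes) and genotype (colour). Points are edgeR estimates, bars SE, and filled points are calls. Myc in WT lies above 0 throughout, whereas Myc in BBA with IL-15 lies at -1.61 to -1.09.

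The difference between the WT and BBA responses was tested directly. It was 2.30 (SE 0.32, adjusted p = 0.00897, edgeR) for Myc in Tnv with IL-15, 2.09 (SE 0.36, adjusted p = 0.00848) in Tcm with IL-15 and 1.51 (SE 0.29, adjusted p = 0.0181) in CD4+ cells with IL-7, where 2.42%, 7.64% and 1.1% of all genes were called. It was 1.14 (adjusted p = 0.0753, edgeR) in Tnv with IL-7, where 2.46% of genes were called, and 2.15 (SE 0.47, adjusted p = 0.213) in Tem with IL-15, where 0.00966% were, neither of them called for Myc. The WT and AAB responses of Myc in Tnv with IL-15 differed by 1.54 (SE 0.31, adjusted p = 0.0965, edgeR), which was not called, where 0.318% of genes were. Mxd4 was the other member called, at -0.68 (SE 0.14, adjusted p = 0.0189, edgeR) in Tcm with IL-15, from WT levels of 70.2 and 74.2 CPM without cytokine against 39.1 and 44.3 with it, beside 71.9 and 78.5 against 65.9 and 70.8 in BBA. In the fit with filterByExpr that difference was -0.50 (adjusted p = 0.123). Of 108 such tests of a member, 4 gave a call. Elsewhere 0.114% of genes were called for WT minus BBA in Tcm with IL-7, and for WT minus AAB 0.293% in Tnv with IL-7, 0.00952% in Tcm with IL-7, 0.134% in Tcm with IL-15, 0% in Tem with IL-15 and 0.019% in CD4+ cells.

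The antagonists had responses of their own, of which only that of Mxd4 above was called as differing between genotypes. Mxi1, an antagonist of the MXD group, rose in WT Tnv from 24.7 and 25.2 CPM to 37.7 and 42.5 with IL-7 (log2 0.66, SE 0.10, adjusted p = 0.00353, edgeR) and to 41.5 and 42.4 with IL-15 (0.77, SE 0.10, adjusted p = 0.00688). In CD4+ cells with IL-7 it rose in each genotype, by 0.79 (SE 0.11, adjusted p = 0.000832, edgeR) in WT, 0.98 (SE 0.14, adjusted p = 0.0102) in AAB and 1.12 (SE 0.16, adjusted p = 0.00409) in BBA, where 16.8%, 11.2% and 12.4% of all genes were called. The CD4+ levels of Mxi1 were 20.2 to 28.2 CPM without and 37.5 to 55.9 CPM with IL-7, and no genotype's groups overlapped. In Tcm with IL-7 it rose by 0.59 (adjusted p = 0.0494, edgeR) in AAB and 0.63 (adjusted p = 0.0311) in BBA, with 9.99% and 7.99% of genes called, and both of these calls were lost with filterByExpr and in each fit that left out 1 library.

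Mxd4 was called lower with IL-7 in WT Tnv and in AAB and BBA Tcm. It was not called in AAB Tnv (log2 -0.94, adjusted p = 0.0539, edgeR) or BBA Tnv (-0.68, adjusted p = 0.0986). Nor was it called in CD4+ cells, where group means went from 58.4 to 47.0 CPM in WT and 49.0 to 44.8 in AAB. In BBA CD4+ cells the mean rose from 40.8 to 49.5 CPM. In WT Tnv it went from 61.3 and 68.2 CPM to 35.0 and 39.9 (log2 -0.81, SE 0.12, adjusted p = 0.00355, edgeR). In Tcm it went from 71.0 and 79.1 CPM to 31.3 and 35.4 in AAB (-1.15, SE 0.11, adjusted p = 0.00165) and from 71.9 and 78.5 to 29.4 and 41.1 in BBA (-1.06, SE 0.16, adjusted p = 0.00912), without overlap. WT Tcm with IL-7 held 1 library at 34.0 CPM and 1 at 70.0, so no change could be read there. Mxd1, an antagonist induced as cells leave the cycle, rose with IL-7 in WT CD4+ cells, from 36.3, 30.2 and 36.7 CPM to 51.2, 61.0 and 72.8 (0.85, SE 0.14, adjusted p = 0.00163, edgeR). Mlx, the partner of MNT and of MLXIP, fell in the same cells from 66.4, 65.0 and 76.2 CPM to 46.9, 42.8 and 44.6 (-0.63, SE 0.09, adjusted p = 0.000677, edgeR), and in BBA Tnv with IL-15 from 56.6 and 62.4 to 32.9 and 37.9 (-0.69, SE 0.16, adjusted p = 0.0161). Mnt, the broadly expressed antagonist, gave 0 calls in 18 responses in edgeR's test, with 5 at an unadjusted p under 0.05, and Mga 0 of 18, with 1. Over all responses of WT 8 of 54 tests gave a call, and over those of AAB and BBA 11 of 108. In the responses not yet given, 0.381% of genes were called in WT Tcm with IL-7 and 6.89% in BBA Tnv with IL-7. With IL-15 these shares were 2.89% in AAB Tcm, 1.53% in WT Tem, 0.978% in AAB Tem and 0.386% in BBA Tem.

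Between WT cell states without cytokine, Mxd4 was the only member called in edgeR's test. Tnv libraries held 61.3 and 68.2 CPM of it, Tcm libraries 70.2 and 74.2 and Tem libraries 91.4 and 106, and the states did not overlap. Tem over Tnv was 0.62 (SE 0.11, adjusted p = 0.0154, edgeR), where 8.08% of genes were called, against 2.78% for Tcm over Tnv and 1.95% for Tem over Tcm. Under a 2-fold limit, with no filter or in 1 fit over all CD8+ libraries it was not called. Myc in the same states was at 166 and 231, 177 and 240, and 123 and 172 CPM, where Tnv overlapped with both memory states and Tem lay below Tcm, and it was not called. The proliferation marker Mki67 was at 7.27 to 7.41 CPM in these Tnv, 23.1 to 36.7 in Tcm and 128 to 154 in Tem. The part of proliferation in the Mxd4 values was not tested.

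In the retrovirus libraries, Myc was at 43.9 and 34.1 CPM with CA-STAT5A and at 67.3 and 65.0 with the empty vector, without overlap. It fell by 0.76 on the log2 scale (SE 0.16, adjusted p = 0.0375, edgeR), and Mxi1 rose by 0.81 (SE 0.15, adjusted p = 0.0247) from 18.6 and 20.7 to 33.9 and 35.2 CPM. With 2 of 9 members called beside 6.63% of all genes, Mxd4 was at 145 and 151 against 107 and 109 CPM (0.46, SE 0.10, adjusted p = 0.0432), under 1.5-fold. Mxd1, at 212 to 256 CPM, was well above the 16.6 to 72.8 CPM of the sorted libraries, in a table normalized separately, and the log2 ratio of Myc to its antagonists was -2.87 to -1.62. The calls of Myc and of Mxi1 were each lost in 3 of 4 fits that left out 1 library. These cells held few T cell transcripts. Of 6 myeloid markers, Itgam, which natural killer cells also carry, was called higher with CA-STAT5A (1118 to 1265 against 289 to 312 CPM), and Lyz2, Csf1r and S100a8 were called lower, with log2 values of -2.65, -2.57 and -1.14. All 5 B cell markers were called lower, from a summed 146 and 89.4 CPM with the empty vector to 9.35 and 25.9 with CA-STAT5A, and the part of these transcripts in the values was not tested.

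The genes whose levels tracked Myc most closely were taken by Spearman correlation over the 24 CD8+ group means among 11544 genes, as a description over groups that share genotypes and depth. Cad, which makes pyrimidines, was first at 0.952, followed by Psme3 at 0.944, Eif5a and Tfap4 at 0.941 and Wdr74 at 0.935. The lowest values were those of Ikzf3 (-0.897), Car2 (-0.883), Dennd1c (-0.877), Ube2l6 (-0.857) and Ghdc (-0.847). Among the members, Max was at 0.767, Mnt at 0.463, Mlx at 0.323, Mxd3 at 0.187, Mxd1 at 0.122, Mxi1 at -0.0652, Mga at -0.0957, Mycn at -0.485 and Mxd4 at -0.525. Max thus tracked Myc most among the members and Mxd4 ran most against it.

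A list of 36 MYC-induced genes, chosen from textbook targets of MYC with earlier results of these data known, was read beside the members. Its counts are a description and no independent support. The shares of all genes called in these comparisons, in either direction, stand with the Myc values above. In Tcm with IL-15, 33 of 36 were called higher in WT than in BBA (median log2 1.37, against -0.00311 for all genes tested), 24 were called higher in WT than in AAB (0.707) and 20 higher in AAB than in BBA (0.693). With IL-15, 16 were called higher in WT than in BBA in Tnv (median 0.719) and 8 in Tem (0.867), and with IL-7 9 in Tnv (0.639), 16 in Tcm (0.895) and 5 of 35 in CD4+ cells (0.363). Without cytokine 0 of 429 tests of these MYC-induced genes gave a call between genotypes by edgeR, with 47 at an unadjusted p under 0.05. Srm, which makes spermidine, was at 121 and 131 CPM in WT and 19.5 and 24.02 in BBA Tcm with IL-15 (2.49, SE 0.13, adjusted p = 9.44e-05, edgeR). Slc7a5, an amino acid transporter, was at 147 and 151 against 25.2 and 28.8 CPM (2.42, SE 0.13, adjusted p = 9.44e-05), and Apex1, a DNA repair enzyme, at 92.0 and 81.2 against 15.8 and 17.2 CPM (2.35, SE 0.11, adjusted p = 9.44e-05). The 9 calls in Tnv with IL-7 fell to 0 in 3 of the 6 fits without 1 library, and the 16 in Tcm with IL-7 fell to 0 with a sex term or without either BBA library and to 4 and 5 without either AAB library, while they were 25 and 27 without either WT library. The 8 in Tem were 1 with filterByExpr and 21 with DESeq2, and they fell to 0 in 5 of the 6 fits without 1 library and to 1 in the other. The 16 in Tnv with IL-15 were 28 with filterByExpr, 8 to 10 in 5 of the 6 fits without 1 library and 17 without WT replicate 2. In Tcm with IL-15 the 33 calls of WT over BBA were 32 or 33 without any 1 library. The 24 of WT over AAB were 10 without WT replicate 1, 7 and 12 without AAB replicates 1 and 2 and 20 to 24 in the other fits, and the 20 of AAB over BBA were 13 without AAB or BBA replicate 1, 7 without AAB or BBA replicate 2 and 20 without either WT library.

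Genes that act on the network were read from lists of the same kind, in a comparison where 23.5% of all genes were called. Of 11 MYC coactivators, 4 were called higher in WT than in BBA in Tcm with IL-15, among them the acetyltransferase Kat2a (log2 1.16, SE 0.11) at 144 and 161 against 64.2 and 69.0 CPM. Of 11 genes of MYC protein turnover, 3 were called there, namely Pim1, a kinase that stabilizes MYC (1.75, SE 0.10), the deubiquitinase Usp36 (0.94, SE 0.10) and Pim2 (0.84). Pim1 was at 318 and 369 CPM in WT and 95.3 and 104 in BBA. Of the 11 MXD and MNT corepressors 1 was called higher (Rbbp7, 0.67). Beside 23.5% of all genes, 3 of 11 is near the background and 1 of 11 below it, and nothing is read from these counts about the lists. Of the 2 MYC-repressed genes that could be tested, Ndrg1 was higher in WT, at 27.0 and 25.8 against 15.8 and 15.9 CPM (0.70, SE 0.12), which is the reverse of its list's name. The value of the other is not given, and nothing is read from 1 gene about the list. The other network genes (Mycl, Mlxip, Mlxipl, Mycbp and Mycbp2) gave 0 calls in 51 tests between genotypes with cytokine by edgeR, with 1 at an unadjusted p under 0.05.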

How the data were processed

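Read counts per gene, not normalized, were deposited by the authors in 3 tables (CD8+, CD4+, retrovirus) that cover 69 samples, 67 of which could be grouped from their labels. Per the study's methods, single-end reads of poly(A) RNA were aligned with tophat2 to mm10 and counted with htseq-count. The submitters' processing notes name mm9, TopHat2, Cufflinks and HTSeq, and annotation and strand are not given in the sources used here. The retrovirus table held 5 summary rows that took 67.0% to 68.4% of each column and stayed out of totals and tests.

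Genes were filtered by the Jaccard rule of HTSFilter, re-implemented with 100 thresholds from 1 to 200 normalized counts (loess span 0.3), and tested with edgeR 4.0.16 (R 4.3.3), TMM scaling and the legacy quasi-likelihood functions, checked first on simulated data. Genotypes were fitted within a condition, responses within a genotype and cell state, and differences of responses over both conditions and genotypes. P-values were adjusted by Benjamini-Hochberg over all genes tested. Alternatives were filterByExpr, no filter, DESeq2 1.42.0, its size factors in edgeR, a 2-fold limit, a replicate block, a sex term, 1 fit per lineage and leaving out each library. The sex term of the retrovirus fit was added after the data were seen. The study describes its replicates as biological, from 2 or 3 mice a group over several trials, but the labels do not tie a library to a mouse or trial.

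All 10 members were named in every comparison, with up to 3 called genes per direction of each list, and the 5 genes most and least correlated with Myc. Stat5a, Stat5b and cell markers served as checks. Members and lists were chosen with earlier results of these data known. Myc had no RefSeq promoter entry.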

Additional observations from a re-analysis of the deposited data

Results flagged for a closer look

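These 4 results were singled out because the responses of WT and BBA cells to the same cytokine differed by a test of the difference itself (edgeR, more than 1.5-fold, adjusted p under 0.05). The WT response of Myc to IL-15 exceeded the BBA response by 2.30 on the log2 scale in Tnv (adjusted p = 0.00897), where the WT response was 0.81 and the BBA response -1.52. It exceeded it by 2.09 in Tcm (adjusted p = 0.00848), where the responses were 0.98 and -1.09, and with IL-7 by 1.51 in CD4+ cells (adjusted p = 0.0181), where they were 0.52 and -0.99. For Mxd4 in Tcm with IL-15 the difference was -0.68 (adjusted p = 0.0189), the only one of the 4 that filterByExpr, the fit with no filter and the single fit over all CD8+ libraries no longer called. BBA Tcm with IL-15 held 192 and 402 CPM of summed B cell markers against 92.2 and 173 in WT, and the part of this in the 2 Tcm results was not tested. Myeloid and B cell levels in Tnv with IL-15 stand beside its values above, and their part was not tested either. No group of libraries had the 4 or more needed to look for an outlying library.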

How the results depend on the processing

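Counts of called members were recomputed under each alternative. The shares of all genes called under each alternative, or without 1 library, are not given. A change in these counts is thus not read as particular to the members. Between WT and BBA 7 calls became 12 with filterByExpr and 16 with no filter, 2 of them of Mycn in each. Between AAB and BBA 2 calls became 6 with no filter (1 of Mycn), 4 with DESeq2, and 1 with a 2-fold limit or in 1 fit per lineage. Of the WT responses 8 became 0 with a 2-fold limit, and of the AAB and BBA responses 11 became 5 with it, 18 with no filter (3 of Mycn) and 17 in 1 fit per lineage. The 4 differences of responses became 7 with DESeq2, the 1 call between states became 0 with a 2-fold limit, no filter or 1 fit per lineage, and the 2 retrovirus calls became 0 with a 2-fold limit and stayed 2 with a sex term. The ratio of Myc to its antagonists (WT minus BBA, Tcm with IL-15, log2) was 2.59 without division by length. Which genes a filter keeps changes the TMM factors, and the log2 values moved by a median of up to 0.323 with no filter and up to 0.233 with filterByExpr, which favoured WT over BBA with IL-15.

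Leaving out 1 library gave 5 to 11 calls between WT and BBA, 1 to 5 between WT and AAB, 1 to 3 between AAB and BBA, 5 to 12 in WT responses, 9 to 14 in AAB and BBA responses, 3 to 7 in differences of responses, 0 to 1 between states and 0 to 1 with the retrovirus. The counts of 11, of 5 (WT and AAB) and of 7 came without replicate 2 of WT Tcm with IL-7. Those of 1 (WT and AAB) came without either AAB Tnv library with IL-15, that of 1 between AAB and BBA without AAB Tcm with IL-15 replicate 2, and that of 5 in WT responses without WT Tnv with IL-7 replicate 2. The state call was lost without either WT Tnv library or WT Tem replicate 1, and both retrovirus calls were lost without either CA-STAT5A library. The ratio ran from 2.33 to 2.54 for WT minus BBA and from 1.18 to 1.43 for WT minus AAB. Signs of Myc turned only where no call was made: the values ran from -0.33 to 0.0902 (Tnv), -0.43 to 0.21 (Tcm), -0.38 to 0.75 (Tem) and -0.43 to 0.32 (CD4+) for AAB over BBA without cytokine, from -0.0108 to 0.56 (Tcm) and -0.29 to 0.31 (CD4+) for WT over BBA without cytokine, and for WT over AAB from -0.33 to 0.41 in CD4+ cells without cytokine and from -0.18 to 0.70 in Tcm with IL-7.

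Replicate numbers are shared by groups, but the labels do not say that a number marks an animal or day. Deviations of same-numbered libraries of WT and BBA CD4+ cells with IL-7 correlated at 0.126, 0.211 and 0.0829, and over all pairs of groups from -0.254 to 0.799, so the numbers were not taken as pairs. With a replicate block the calls were 7 between WT and BBA, 4 between AAB and BBA, 12 in AAB and BBA responses and 7 in differences of responses. The block turned the uncalled values of Myc in CD4+ cells without cytokine from -0.01 to 0.0459 (WT over AAB) and from -0.02 to 0.0202 (WT over BBA). The cause of these changes was not tested. Changes of Mxd1, Mxd3 and Mga in Tcm with IL-15 passed the adjusted p but not the 1.5-fold limit, and Mycn with IL-15 rested on 4 to 107 counts per group.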

Other observations

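Conflicting labels kept 2 naive CD4+ libraries out of every comparison, since their titles give no cytokine and their treatment labels give IL-7. In the AAB library, Myc was at 119 CPM, Max at 163, Mxd1 at 33.0, Mxd4 at 62.9, Mxi1 at 23.96, Mnt at 72.3 and Mlx at 61.5 CPM. In the BBA library, Myc was at 136 CPM, Max at 133, Mxd1 at 34.3, Mxd4 at 49.4, Mxi1 at 24.2, Mnt at 70.6 and Mlx at 67.0 CPM. Mycn had 1 count in the first and 0 in the second, where 0 counts allow a level of up to 3 counts per library.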
